A study of Homo sapiens with 15 samples.

Results

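Gene expression was compared between a pair of cell lines that carry the same knockout and differ in the protein put back. The cells were C4-2, an established castration-resistant prostate cancer line, with a knockout of PNPLA2, which encodes adipose triglyceride lipase (ATGL). One line (KO_S404A) had received ATGL with alanine in place of Ser404, and the other (KO_S47A) had received ATGL with alanine in place of Ser47, which the submitters describe as lipolytically inactive. Libraries were assigned by their titles, 3 to KO_S404A and 3 to KO_S47A, 6 of the 15 libraries of the series. The other lines served for levels and as a shared starting point: the knockout given back wild-type ATGL (KO_WT), the knockout without added protein (KO) and a line with a scramble control (Scramble), 3 libraries each. KO_S404A, KO_S47A and KO_WT all carry the knockout. Every line was grown in RPMI1640 with 5 mM glucose and 5% dialyzed serum, and none had a further drug or time point in its labels. Each genotype is 1 line, and the sources used here do not name the promoter or vector that drives the added ATGL. The labels do not say that the 3 libraries of a line came from separate cultures, so p-values cover only the spread among these libraries, which could be technical.

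ATGL removes the first fatty acid from the triglyceride stored in lipid droplets, and hormone-sensitive lipase (LIPE) and monoglyceride lipase (MGLL) remove the others. The coactivator ABHD5 raises its activity, and G0S2 and HILPDA inhibit it. Fatty acids released in this way are burned in mitochondria, are put back into lipids, or act as ligands of the PPAR family of nuclear receptors, whose targets include genes of fatty acid oxidation. Ser47 is the nucleophile of the catalytic dyad of ATGL. Ser404 lies in the carboxy-terminal region, and its counterpart in mouse ATGL is phosphorylated by AMPK and by protein kinase A, kinases that answer to energy state and to cyclic AMP. Side by side, the lines therefore set a protein without its active-site serine against one without the human counterpart of this phosphorylation site.

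The places in PNPLA2 that the labels refer to are shown to locate the exchanged serines in the gene. They are reference sequence (GRCh38, GENCODE 29 transcript ENST00000336615.8, plus strand of chromosome 11, 504 coding codons) and were not read from the libraries, and the sources used here do not state the nucleotide change behind each protein. Capitals mark the serine codon, which is TCG at both places.
PNPLA2 Ser47 codon, exon 2, chr11:819842-819874: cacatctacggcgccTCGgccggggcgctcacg
PNPLA2 Ser404 codon, exon 10, chr11:824542-824574: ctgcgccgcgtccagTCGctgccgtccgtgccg
The Ser47 codon stands at chr11:819857-819859 and the Ser404 codon at chr11:824557-824559. The deposited tables give 1 count per gene. Reads of either mutant transcript, of wild-type ATGL and of what the knocked-out gene still makes therefore fall into the same value.

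Counts in genes totalled 61352325, 64345775 and 50971324 in KO_S404A libraries 1, 2 and 3, and 54933402, 53922842 and 49885735 in those of KO_S47A. Reads that were assigned to no gene made up 13.2% of KO_S404A library 2, the lowest of all 15 libraries, 19.3% and 18.5% of the other KO_S404A libraries and 17.2% to 18.5% of the KO_S47A libraries. The KO_S404A libraries lay far from each other. Over genes with at least 20 counts, chi-square per degree of freedom was 148 between libraries 1 and 2, 239 between 1 and 3 and 140 between 2 and 3. In KO_S47A, libraries 1 and 2 lay close together (8.60) and library 3 lay apart from both (170.05 and 182). The cells carried the markers of a luminal prostate line: KLK3, KLK2, FOLH1, HOXB13, KRT8, KRT18 and TMPRSS2 were present in all 6 libraries. CPM here are counts scaled by TMM to a common library total in genes. Of 14 markers of stroma, endothelium and blood, DCN, PDGFRA, PECAM1 and CD3E had 0 counts in all 6 libraries, and 9 were under 1 CPM. The summed level of the 14 was 37.8 to 49.4 CPM in KO_S404A and 36.3 to 49.7 CPM in KO_S47A. Above 1 CPM in all 6 libraries were COL1A1 (15.2 to 23.2 CPM), VWF (6.07 to 14.7), CD68 (7.18 to 11.0) and PDGFRB (2.85 to 5.13). The basal markers KRT5 and TP63 and the neuroendocrine marker INSM1 were at 0 in all 6. The basal marker KRT14 (1.38 to 2.20 CPM) and the neuroendocrine marker SYP (2.85 to 4.44 CPM) were present in all 6.

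The added gene itself separated the lines. PNPLA2 stood at 303, 443 and 493 CPM in the KO_S404A libraries and at 113, 110.2 and 164 CPM in the KO_S47A libraries, so that the lowest KO_S404A library lay above the highest KO_S47A library. The means were 413 ± 98.3 CPM in KO_S404A and 129 ± 30.6 CPM in KO_S47A (SD, n = 3 each), 3.20-fold apart. The log2 fold change was 1.68 (SE 0.20, 95% interval 1.25 to 2.10, edgeR quasi-likelihood test, adjusted p = 0.0109). Same-numbered libraries differed by 1.43, 2.01 and 1.58 on the log2 scale. Wild-type ATGL was put back at a level between those of the mutants, 219.9 ± 18.1 CPM (n = 3), and KO kept 11.3 ± 1.99 CPM (n = 3). The call depended on single libraries. Without KO_S404A library 2 the value was 1.62 (adjusted p = 0.0969), without KO_S404A library 3 it was 1.53 (adjusted p = 0.0510), without KO_S47A library 1 it was 1.57 (adjusted p = 0.164) and without KO_S47A library 2 it was 1.55 (adjusted p = 0.158). A fit of these 6 libraries alone gave 1.67 (adjusted p = 0.922). Every other difference between the lines is also a difference between a line with more and a line with less added transcript, so the exchanged serine and the amount of transcript cannot be told apart. The same holds for whatever else differs between single lines.

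**Figure D1:**
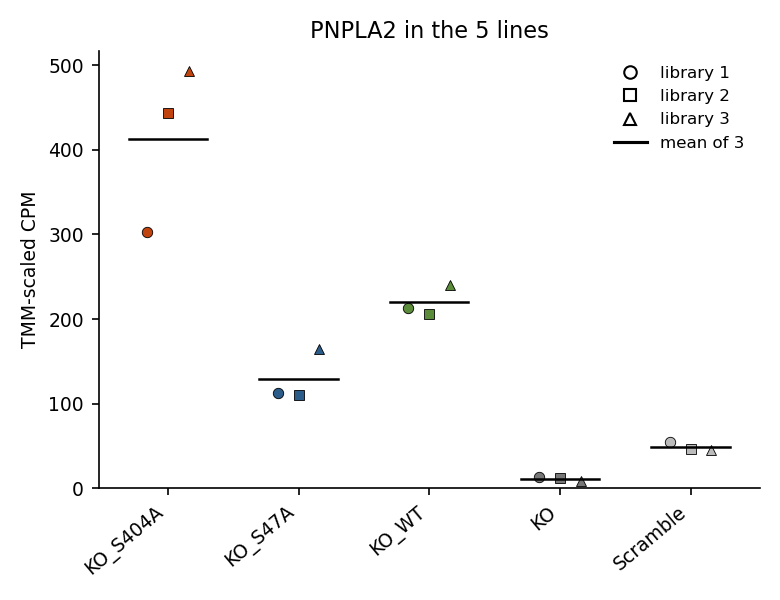
PNPLA2 in TMM-scaled CPM (vertical axis) in the 5 lines, 1 point per library with the library number as its shape and a bar at the mean of 3. KO_S404A lies between 303 and 493 CPM, KO_S47A between 110.2 and 164 CPM and KO_WT between 207 and 241 CPM, above both KO and Scramble.

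Apart from PNPLA2, no gene was called between KO_S404A and KO_S47A. Of 14246 genes tested, 1 was called higher and 0 lower at a Benjamini-Hochberg adjusted p under 0.05, which is 0.00702% of those tested, and the smallest adjusted p among the others was 0.679. At an unadjusted p under 0.05 there were 939 genes (6.59%), 587 higher (4.12%) and 352 lower (2.47%) in KO_S404A. The CPM ranges of the 2 lines did not overlap for 999 genes (7.01%), 494 higher (3.47%) and 505 lower (3.54%). The middle 90% of log2 differences lay between −0.51 and 0.44. The 95% interval of a gene's difference reached a median of 0.36 to either side, so a change of the size of most of these differences was not detectable with 3 libraries a line. With the library number as a block, 2 genes were called (0.014%), PNPLA2 (1.68, adjusted p = 0.00156) and EPHA6 (−0.81, adjusted p = 0.0400), and 2806 genes had an unadjusted p under 0.05. DESeq2 called 2 genes (0.0109%), PNPLA2 and WLS (0.58, adjusted p = 0.0312), and gave 1035 at an unadjusted p under 0.05. The count was 0 without KO_S404A library 2, KO_S404A library 3, KO_S47A library 1 or KO_S47A library 2.

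**Figure D2:**
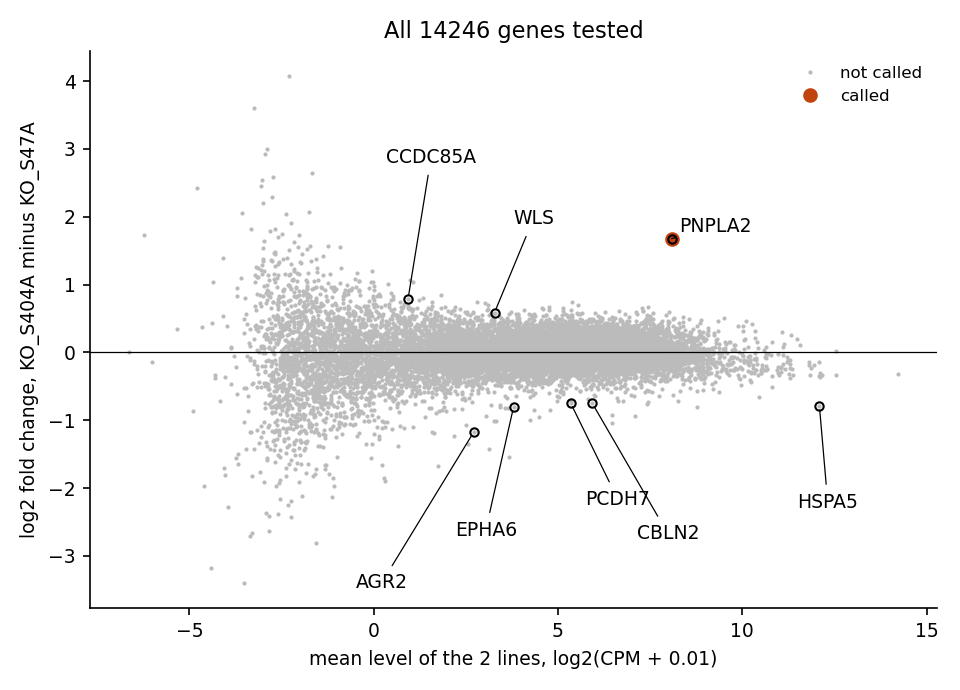
Log2 fold change of KO_S404A minus KO_S47A (vertical axis) against the mean level of the 2 lines on a log2 CPM scale (horizontal axis), 1 point per tested gene. PNPLA2 is the 1 called gene, at 1.68, and the other labelled genes, among them WLS at 0.59, AGR2 at −1.18 and HSPA5 at −0.79, were not called.

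Set against the knockout that both lines share, KO_S404A had 3 called genes, all higher: PNPLA2, WLS and CCDC85A (0.0211% of genes tested, 581 at an unadjusted p under 0.05). KO_S47A had 1, PNPLA2 (0.00702%, 2397 at an unadjusted p under 0.05). PNPLA2 averaged 413 CPM in KO_S404A, 129 CPM in KO_S47A and 11.3 CPM in KO, with log2 fold changes of 5.19 (SE 0.23, adjusted p = 4.71e-08) in KO_S404A and 3.51 (SE 0.21, adjusted p = 2.99e-06) in KO_S47A. These comparisons use the same KO libraries, so they are not independent of each other or of the direct one. The counts depend on how libraries numbered 3 are handled. With the library number as a block, 3150 genes were called in KO_S47A minus KO (22.1%), 1510 higher and 1640 lower. The numbers do not clearly pair these lines: KO_S47A library 2 correlated better with KO library 1 (0.228) than with KO library 2 (0.15). DESeq2 called 8 genes in KO_S404A minus KO (0.0437%) and 34 in KO_S47A minus KO (0.261%). Among the libraries numbered 1 and 2 alone, 1 gene was called in KO_S404A minus KO_S47A (0.00697%, PNPLA2), 403 genes were called in KO_S404A minus KO (2.81%, 1.54% higher and 1.27% lower) and 3098 in KO_S47A minus KO (21.6%, 1534 higher and 1564 lower). Without KO_S47A library 3, 15 genes were called in KO_S47A minus KO. Without KO library 2, PNPLA2 was the 1 gene called in KO_S404A minus KO.

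WLS, the carrier that takes Wnt proteins to the cell surface, had the smallest p after PNPLA2 between the mutant lines. It stood at 11.8, 12.3 and 10.7 CPM in KO_S404A and at 7.91, 7.97 and 7.34 CPM in KO_S47A, with no overlap. The log2 difference was 0.59 (SE 0.12, interval 0.34 to 0.84, unadjusted p = 0.000198, adjusted p = 0.679), and the same-numbered pairs differed by 0.58, 0.63 and 0.54. Against KO (6.12, 5.26 and 5.55 CPM) WLS rose in KO_S404A by 1.04 (SE 0.12, adjusted p = 0.00365). In KO_S47A the value was 0.46 (SE 0.12, adjusted p = 0.274). The KO_WT libraries had 14.7, 12.5 and 10.9 CPM and overlapped those of KO_S404A. By mean level KO_S404A (11.6 CPM) stood next to KO_WT (12.7 CPM), KO_S47A (7.74 CPM) stood between KO_S404A and KO (5.65 CPM), and Scramble was the highest (20.9 CPM). The call of WLS in KO_S404A minus KO was lost without KO library 2 (0.99, adjusted p = 0.0559) and with only the 2 groups fitted (1.04, adjusted p = 0.316).

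CCDC85A, which encodes a coiled-coil protein, was ordered the same way among the 4 knockout lines. It stood at 2.17, 2.61 and 2.44 CPM in KO_S404A and at 1.63, 1.16 and 1.37 CPM in KO_S47A, and the ranges did not overlap. The log2 difference was 0.79 (SE 0.20, interval 0.36 to 1.23, adjusted p = 0.679). Against KO, where it averaged 0.735 ± 0.125 CPM, CCDC85A rose in KO_S404A by 1.71 (SE 0.21, adjusted p = 0.00735), and the value in KO_S47A was 0.92 (SE 0.22, adjusted p = 0.274). KO_WT averaged 2.74 ± 0.453 CPM and overlapped KO_S404A. Scramble stood at 27.3 CPM, above the libraries of all 4 knockout lines. The call against KO was lost with only the 2 groups fitted (1.71, adjusted p = 0.542) and without KO library 2 (adjusted p = 0.0995), KO library 3 (0.0809) or KO_S404A library 2 (0.0577). KCNH8, a voltage-gated potassium channel named after its values were seen, had 13.4, 12.2 and 8.32 CPM in KO_S404A and 8.17, 8.74 and 6.01 CPM in KO_S47A. Its ranges overlapped at KO_S404A library 3. The log2 difference was 0.57 (interval 0.12 to 1.02, adjusted p = 0.679), and the values against KO were 1.37 in KO_S404A (adjusted p = 0.065) and 0.80 in KO_S47A (adjusted p = 0.274).

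CBLN2, PCDH7 and EPHA6, surface or secreted proteins of cell contact, stood lower in KO_S404A than in KO_S47A with no overlap, and none was called. CBLN2, a cerebellin secreted at synapses, had 46.0, 48.3 and 42.2 CPM in KO_S404A and 66.8, 66.1 and 96.7 CPM in KO_S47A. The log2 difference was −0.75 (SE 0.18, interval −1.13 to −0.37, adjusted p = 0.679), with KO_WT at 45.1 ± 7.05 CPM and KO at 85.8 ± 12.7 CPM. The KO_S404A libraries lay within the range of KO_WT, and those of KO_S47A overlapped KO. PCDH7, an adhesion protein of the protocadherin family, had 27.0, 31.8 and 32.1 CPM in KO_S404A and 45.2, 46.1 and 61.1 CPM in KO_S47A, with 21.9, 19.9 and 23.7 CPM in KO_WT and 58.6, 60.0 and 58.7 CPM in KO. Its difference was −0.74 (SE 0.18, interval −1.13 to −0.36, adjusted p = 0.679), and against KO it was −0.96 in KO_S404A (adjusted p = 0.344) and −0.22 in KO_S47A (adjusted p = 0.485). The KO_S404A libraries of PCDH7 lay above those of KO_WT and below those of KO_S47A. EPHA6, an ephrin receptor, had 13.3, 8.64 and 8.43 CPM in KO_S404A and 19.9, 19.0 and 14.0 CPM in KO_S47A, a difference of −0.80 (SE 0.20, interval −1.23 to −0.37, adjusted p = 0.679). Its same-numbered pairs differed by −0.58, −1.13 and −0.73, and with the library number as a block EPHA6 fell by 0.81 (adjusted p = 0.0400). EPHA6 averaged 8.82 CPM in KO_WT, 13.9 CPM in KO and 18.0 CPM in Scramble, so that KO_S47A was close to Scramble. Of the 20 tested ephrin receptors and ephrins, 0 were called, 13 were above and 7 below 0, and the median was 0.08. Library medians of this list did not overlap, at −0.0086, 0.16 and 0.04 in KO_S404A and −0.10, −0.09 and −0.04 in KO_S47A. EPHA6, EPHB2 (0.35) and EFNA5 (0.33) had an unadjusted p under 0.05, where 6.59% of all genes tested did.

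**Figure D3:**
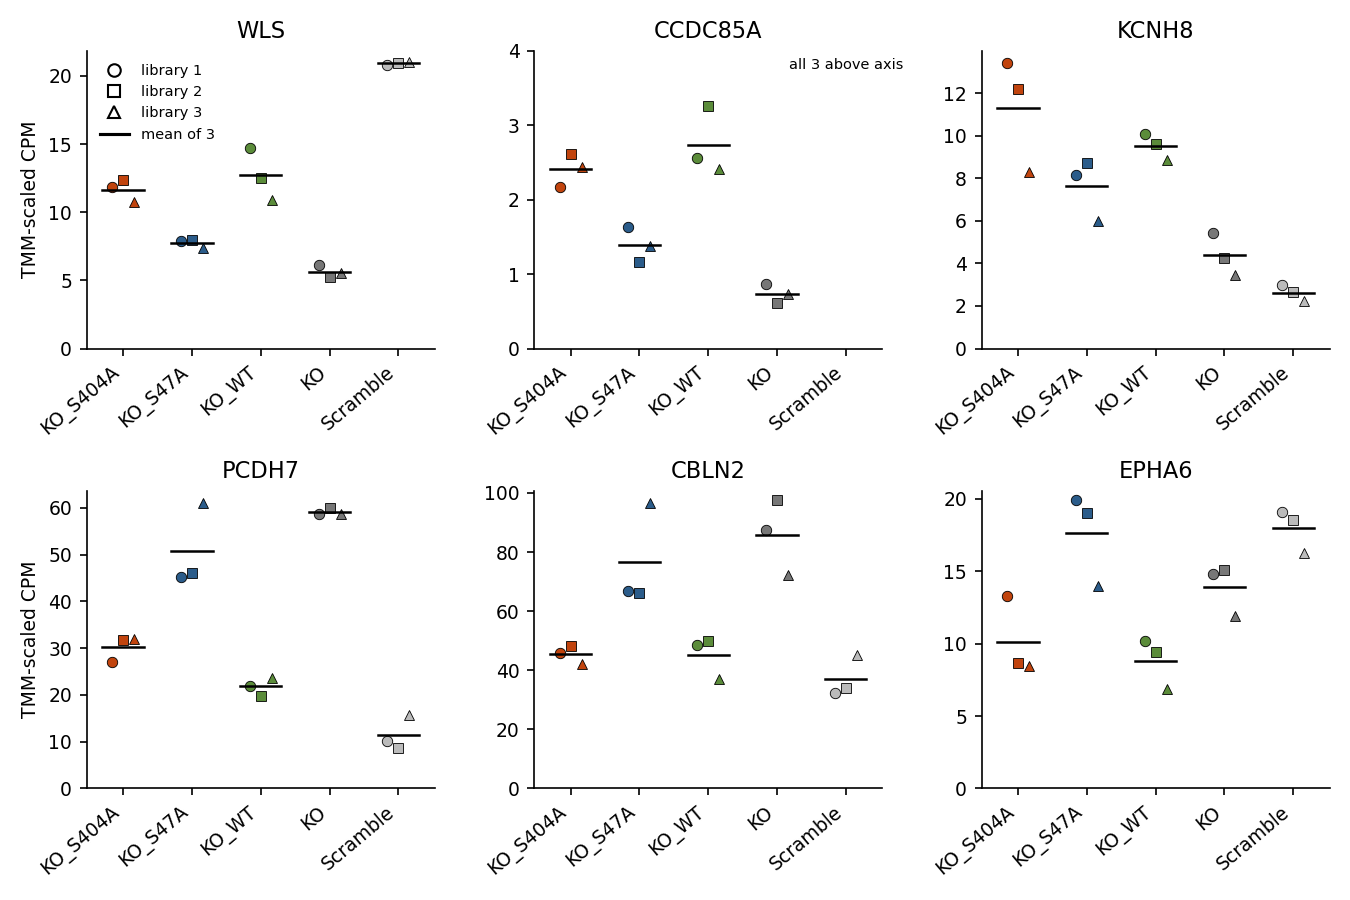
TMM-scaled CPM (vertical axes) of WLS, CCDC85A, KCNH8, PCDH7, CBLN2 and EPHA6 in the 5 lines, 1 point per library and a bar at the mean of 3, with the Scramble libraries of CCDC85A (27.3 CPM on average) above the axis. The KO_S404A mean lies nearer to KO_WT than the KO_S47A mean does in all 6 panels, narrowly for KCNH8. None of the 6 genes was called between KO_S404A and KO_S47A in the fit without the block. The panels are a selection: for ADCY1, SLC6A8, MKL1, CCDC154, TSPAN1 and ENPP5, not shown, the KO_S47A mean lies nearer to KO_WT.

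The other genes with the smallest p higher in KO_S404A, at least 1 CPM and no overlap were B4GALT5, CCDC154, ADCY1, SLC6A8 and MKL1, all with an adjusted p of 0.679. Values in brackets after the CPM of a gene are log2 differences, KO_S404A minus KO_S47A, here and for the genes that follow. B4GALT5, which makes lactosylceramide, had 42.1, 49.2 and 47.7 CPM in KO_S404A and 37.4, 37.9 and 38.4 CPM in KO_S47A (0.29, SE 0.08). ADCY1, an adenylyl cyclase and so a source of cyclic AMP, had 21.3, 29.2 and 28.5 CPM in KO_S404A and 18.3, 19.5 and 19.95 CPM in KO_S47A (0.45, SE 0.12). SLC6A8, the creatine transporter, had 146, 208 and 195 CPM in KO_S404A and 128, 129 and 145 CPM in KO_S47A (0.45, SE 0.12). In each of these 3 KO_S404A library 1 lay closest to the KO_S47A libraries and libraries 2 and 3 lay further above them. MKL1, now named MRTFA, a coactivator of serum response factor, averaged 21.6 ± 3.30 CPM in KO_S404A and 15.4 ± 1.42 CPM in KO_S47A (0.49, SE 0.14). CCDC154 averaged 1.31 ± 0.156 CPM in KO_S404A and 0.69 ± 0.178 CPM in KO_S47A (0.92, SE 0.25). For ADCY1, SLC6A8 and MKL1 the KO_WT mean was nearer to KO_S47A (19.8, 145 and 16.1 CPM) and the KO mean nearer to KO_S404A (24.3, 172 and 19.1 CPM), unlike the order of WLS and CCDC85A. The KO_WT mean of CCDC154 (0.66 CPM) was also nearer to KO_S47A, and that of B4GALT5 (42.7 CPM) was nearer to KO_S404A.

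On the lower side the corresponding genes were SAT1, DNAJC1, ENPP5, STARD4 and TSPAN1, also at an adjusted p of 0.679. SAT1, which acetylates polyamines for export and breakdown, had 33.9, 23.5 and 25.7 CPM in KO_S404A and 46.0, 46.9 and 34.6 CPM in KO_S47A (−0.62, SE 0.14). DNAJC1, a cochaperone of the endoplasmic reticulum membrane, had 129.8, 89.2 and 115.7 CPM in KO_S404A and 154, 161 and 167 CPM in KO_S47A (−0.53, SE 0.12). STARD4, a carrier of cholesterol between membranes, had 10.3, 5.42 and 7.95 CPM in KO_S404A and 15.1, 14.3 and 11.1 CPM in KO_S47A (−0.77, SE 0.20). KO_S404A library 2 was the lowest in all of these. TSPAN1, a tetraspanin, averaged 55.7 ± 12.8 CPM in KO_S404A and 81.2 ± 5.64 CPM in KO_S47A (−0.55, SE 0.15), and ENPP5, of the ectonucleotide pyrophosphatase family, averaged 12.3 ± 2.05 CPM in KO_S404A and 17.6 ± 2.47 CPM in KO_S47A (−0.52, SE 0.13). KO averaged 27.7 CPM for SAT1, 8.73 CPM for STARD4, 53.8 CPM for TSPAN1 and 12.4 CPM for ENPP5, near KO_S404A in each case. The KO_WT mean was nearer to KO_S47A for TSPAN1 (73.0 CPM) and ENPP5 (17.6 CPM). It was nearer to KO_S404A for SAT1 (32.2 CPM), DNAJC1 (125 CPM) and STARD4 (9.01 CPM). Same-numbered pairs differed most in pair 2 for SAT1, DNAJC1, STARD4, TSPAN1 and ENPP5 (−0.99, −0.85, −1.39, −0.86 and −0.71).

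Among the genes that work on stored triglyceride beside ATGL, none was called. The list of lipolysis enzymes and regulators held 26 genes, 22 of them tested. PNPLA2 was its 1 called member, 9 members had a log2 difference above 0 and 13 below, and the median was −0.06, where the median of all 14246 genes tested was 7.8e-05. LIPE had 2.05, 1.28 and 1.87 CPM in KO_S404A and 2.09, 1.63 and 2.24 CPM in KO_S47A (−0.20, interval −0.71 to 0.31, adjusted p = 0.803). MGLL had 27.4, 35.9 and 36.3 CPM in KO_S404A and 28.1, 28.7 and 31.4 CPM in KO_S47A (0.17, interval −0.09 to 0.44, adjusted p = 0.698). ABHD5, the coactivator, had 27.9, 26.9 and 30.8 CPM in KO_S404A and 30.0, 28.9 and 32.2 CPM in KO_S47A (−0.09, interval −0.28 to 0.10, adjusted p = 0.765). The groups overlapped for each, and for ABHD5 the interval leaves room for a log2 difference of at most 0.28 in size. HILPDA, an inhibitor of ATGL listed under its older symbol C7orf68, averaged 41.8 ± 17.0 CPM in KO_S404A and 40.2 ± 13.4 CPM in KO_S47A, with library 3 the highest in both lines (0.06, interval −0.60 to 0.71). G0S2, the other inhibitor, had 1, 1 and 0 counts in KO_S404A and 0 counts in each KO_S47A library and was not tested.

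Nor was any gene of the lipid droplet surface called. Of 15 tested genes of droplet coat and assembly 0 were called, 8 were above and 7 below 0, and the median was 0.04. Its sign turned under 5 of the 12 alternatives tried. PLIN3, a droplet coat protein found in most tissues, had the smallest p of the list, with 90.1, 123 and 119 CPM in KO_S404A and 84.1, 84.7 and 104 CPM in KO_S47A (0.28, SE 0.13, adjusted p = 0.679). The groups overlapped at KO_S404A library 1. PLIN2, another coat protein, was low, at 0.145, 0.27 and 0.215 CPM in KO_S404A and 0.0926, 0.131 and 0.504 CPM in KO_S47A (−0.19, interval −1.98 to 1.59). LPL, the lipase that takes fatty acids from lipoproteins, was also low, at 0.193, 0.255 and 0.488 CPM in KO_S404A and 0.148, 0.15 and 0.867 CPM in KO_S47A (−0.32, interval −1.58 to 0.94), with Scramble at 11.9 CPM. Among 21 tested genes of fatty acid uptake and carriage 0 were called, 0 had an unadjusted p under 0.05 and the median was −0.05. SLC27A4, a fatty acid transport protein, had 57.1, 72.4 and 74.5 CPM in KO_S404A and 53.8, 53.5 and 67.2 CPM in KO_S47A (0.22, interval −0.03 to 0.48).

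Regulators that answer to fatty acids and to energy state did not pass the test either. Of 25 tested genes of the PPAR and PGC-1 list 0 were called. At an unadjusted p under 0.05, 3 were higher in KO_S404A and 0 lower, where 4.12% of all genes were higher: PPARGC1B (0.59), RXRA (0.34) and NCOA1 (0.27). Members named beside such a count, other than the one with the smallest p, were chosen after their values were seen. RXRA, the partner of the PPARs on DNA, had 97.7, 137 and 115 CPM in KO_S404A and 87.5, 98.8 and 89.3 CPM in KO_S47A (SE 0.11, interval 0.10 to 0.59, adjusted p = 0.679), and the groups overlapped at KO_S404A library 1. PPARGC1B, a coactivator of mitochondrial gene expression, had 4.59, 7.37 and 8.67 CPM in KO_S404A and 4.32, 4.54 and 4.84 CPM in KO_S47A. The list's median was 0.15, with 17 members above 0 and 8 below. It was 0.06 with the library number as a block, and 0.04, 0.05, 0.06 and 0.05 without KO_S404A library 1, KO_S404A library 2, KO_S47A library 1 and KO_S47A library 3. PPARA, the PPAR of fatty acid oxidation, had 22.0, 25.9 and 17.9 CPM in KO_S404A and 21.2, 21.2 and 15.9 CPM in KO_S47A (0.17, interval −0.14 to 0.48). PPARGC1A, the related coactivator, averaged 1.94 ± 0.4 CPM in KO_S404A and 1.55 ± 0.489 CPM in KO_S47A (0.33, interval −0.27 to 0.92). PDK4, a PPAR target that shuts off pyruvate oxidation, was at most 0.225 CPM in KO_S404A and at most 0.244 CPM in KO_S47A (−0.02, interval −1.82 to 1.79), levels at which a difference was not detectable.

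Of AMPK, the kinase that phosphorylates the counterpart of Ser404 in mouse, no subunit was called. PRKAA1, a catalytic subunit, had 133, 128 and 115 CPM in KO_S404A and 130.1, 133 and 122 CPM in KO_S47A (−0.03, interval −0.21 to 0.14). PRKAA2, the other catalytic subunit, had 17.7, 17.9 and 17.0 CPM in KO_S404A and 17.0, 19.3 and 18.7 CPM in KO_S47A (−0.06, interval −0.28 to 0.15). The lines overlapped for both, and both genes were chosen after their values were seen. PRKAG1, a regulatory subunit, had 168, 119 and 141 CPM in KO_S404A and 191, 183 and 158 CPM in KO_S47A (−0.31, SE 0.13, adjusted p = 0.679), with KO_S404A library 2 the lowest. Over 21 tested subunits, kinases and targets 0 were called, 10 were above and 11 below 0, and the median was −0.03. Besides PRKAG1, 3 members had an unadjusted p under 0.05, where 6.59% of all genes did: STK11, which encodes the upstream kinase LKB1 (0.29), TBC1D1 (0.30) and RPTOR (0.27).

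No gene of fatty acid oxidation passed the test. Of the 35 tested 0 were called and 0 had an unadjusted p under 0.05, with a median of −0.06 and a range of −0.60 to 0.26. CPT1A, which admits fatty acids to the mitochondrion, had 269, 289.8 and 256 CPM in KO_S404A and 240.4, 225 and 257 CPM in KO_S47A (0.17, interval −0.02 to 0.36, adjusted p = 0.679). SLC25A20, the carnitine and acylcarnitine carrier, had 20.6, 19.1 and 16.2 CPM in KO_S404A and 22.3, 22.8 and 21.7 CPM in KO_S47A (−0.26, SE 0.12, adjusted p = 0.679), and its ranges did not overlap. ACADL, a dehydrogenase of long acyl chains, averaged 31.1 ± 0.537 CPM in KO_S404A and 31.1 ± 5.96 CPM in KO_S47A (−0.0027, interval −0.33 to 0.33). Scramble stood at 8.62 CPM for ACADL.

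In lipid synthesis no gene was called, and the libraries of a line lay far apart for some genes. FASN, fatty acid synthase, had 618, 1277 and 1322 CPM in KO_S404A and 643, 644 and 1158 CPM in KO_S47A (0.40, SE 0.31, interval −0.27 to 1.06). KO_S404A library 1 lay below all KO_S47A libraries and KO_S404A libraries 2 and 3 lay above all of them. ACACA, which makes malonyl-CoA for FASN, had 303, 402 and 387 CPM in KO_S404A and 296, 298 and 316 CPM in KO_S47A (0.26, SE 0.14). Of 22 tested fatty acid synthesis genes 0 were called and the median was 0.03. DGAT1, which closes triglyceride synthesis, had 24.7, 25.1 and 23.3 CPM in KO_S404A and 24.4, 22.7 and 26.9 CPM in KO_S47A (−0.02, interval −0.23 to 0.19). DGAT2, its unrelated counterpart, had 20.3, 24.2 and 32.9 CPM in KO_S404A and 14.9, 15.6 and 28.3 CPM in KO_S47A (0.40, interval −0.13 to 0.93). In DGAT2 each KO_S404A library lay above its same-numbered KO_S47A library and the ranges overlapped. Of 34 tested triglyceride and phospholipid synthesis genes 0 were called. AGPAT1 (0.24), AGPAT3 (0.34) and LPCAT1 (0.29), acyltransferases that build glycerolipids, had an unadjusted p under 0.05, where 4.12% of all genes were higher. AGPAT3 stood at 89.9, 129 and 111 CPM in KO_S404A and 84.7, 83.8 and 93.1 CPM in KO_S47A.

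**Figure D4:**
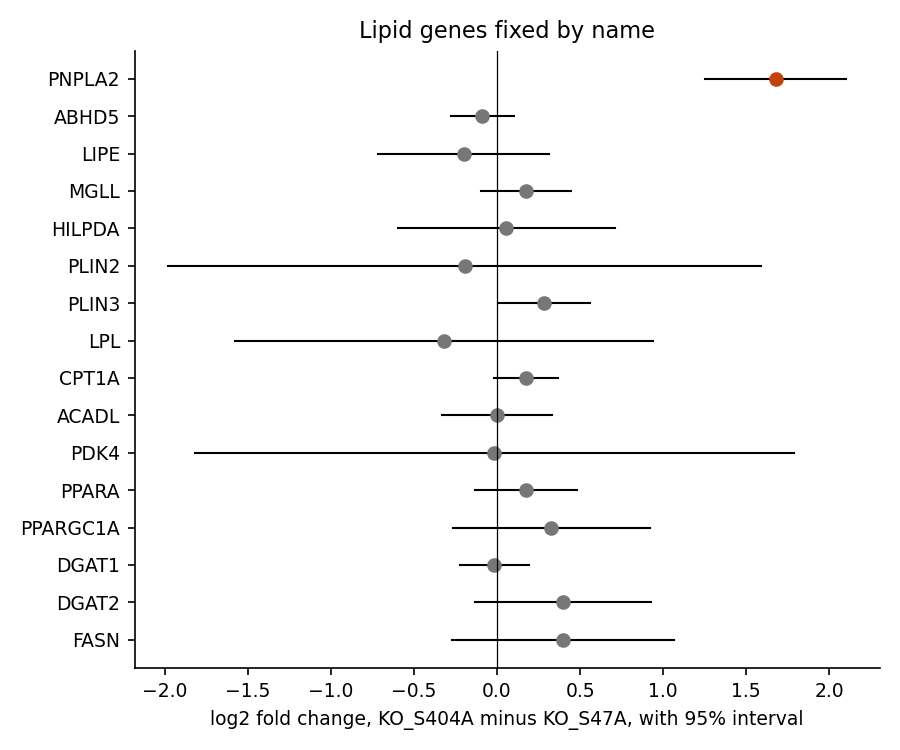
Log2 fold change of KO_S404A minus KO_S47A (horizontal axis) with its 95% interval for PNPLA2 and 15 lipid genes fixed by name. PNPLA2 at 1.68 is called, PLIN3 at 0.28 is the 1 other gene whose interval does not reach below 0, and PLIN2, PDK4 and LPL have wide intervals at levels under 1 CPM.

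No cholesterol synthesis gene passed the test. Of 25 tested members 0 were called, 19 were below and 6 above 0, and the median was −0.13. At an unadjusted p under 0.05 there were 6 lower and 0 higher members, where 2.47% of all genes tested were lower. These were STARD4, given above, the pathway enzymes HMGCS1 (−0.16), FDFT1 (−0.25), MSMO1 (−0.36) and SC5D (−0.32), and INSIG1 (−0.32), which holds back activation of the pathway. FDFT1, squalene synthase, had 385, 380.4 and 429.8 CPM in KO_S404A and 462, 451 and 511 CPM in KO_S47A, with no overlap. The library medians of the list were −0.17, −0.13 and 0.07 in KO_S404A and −0.04, −0.03 and 0.24 in KO_S47A, and the lines overlapped. The median of the differences stayed between −0.23 (without KO_S404A library 3) and −0.04 (without KO_S47A library 3) over all alternatives, and against KO it was −0.19 in KO_S404A and −0.11 in KO_S47A.

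Genes of central carbon metabolism were not called either. Of 25 tested glycolysis genes 0 were called, 19 were above and 6 below 0, and the median was 0.13. It was 0.07 without KO_S404A library 3, 0.04 without KO_S47A library 1, 0.08 without KO_S47A library 2 and 0.26 without KO_S404A library 1. PFKL, the liver-type phosphofructokinase, had 113, 158 and 145 CPM in KO_S404A and 102, 107 and 121 CPM in KO_S47A (0.33, SE 0.13, adjusted p = 0.679). GPI was the other member with an unadjusted p under 0.05 (0.25), where 4.12% of all genes were higher. Of 24 tested genes of the tricarboxylic acid cycle 0 were called (median 0.02). OGDH, a subunit of its oxoglutarate dehydrogenase, had 253, 361 and 265 CPM in KO_S404A and 245, 252 and 243 CPM in KO_S47A (0.25, SE 0.12). The ranges of OGDH did not overlap, and KO_S404A library 2 stood alone at the top. Of 62 nuclear respiratory chain genes 0 were called, with 55 below and 7 above 0 and a median of −0.13. NDUFS4, of complex I, had 77.4, 61.3 and 66.6 CPM in KO_S404A and 83.7, 77.2 and 87.0 CPM in KO_S47A (−0.27, SE 0.11). Like NDUFS4, NDUFA7 (−0.22) and NDUFB9 (−0.24) had an unadjusted p under 0.05, where 2.47% of all genes were lower. The library medians of that list were 0.0016, −0.29 and 0.0021 in KO_S404A and 0.05, −0.04 and 0.16 in KO_S47A on the log2 scale relative to the mean of the 6 libraries, lowest in KO_S404A library 2. The median of the differences was −0.05 without KO_S404A library 2 and −0.22 without KO_S47A library 2.

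Genes of prostate identity were not called between the lines. Of 23 tested luminal genes 0 were called, with a median of 0.02. AGR2, a disulfide isomerase of secretory epithelium, had 5.94, 3.00 and 3.05 CPM in KO_S404A and 10.2, 11.1 and 5.89 CPM in KO_S47A, and the highest KO_S404A library just overlapped the lowest KO_S47A library (−1.18, SE 0.30, interval −1.82 to −0.53, adjusted p = 0.679). Against KO (2.83 CPM) AGR2 had values of 0.50 in KO_S404A (adjusted p = 0.898) and 1.67 in KO_S47A (adjusted p = 0.274), and Scramble stood at 37.5 CPM. KRT14, a basal keratin, was low in both lines, at 1.67, 1.38 and 1.78 CPM in KO_S404A and 2.11, 2.16 and 2.20 CPM in KO_S47A (−0.42, SE 0.17). ONECUT2, a factor of the neuroendocrine list, had 7.49, 13.6 and 15.4 CPM in KO_S404A and 9.71, 9.30 and 9.18 CPM in KO_S47A (0.37, interval −0.15 to 0.89). Of the 5 basal and 6 neuroendocrine genes tested 0 were called. The neuroendocrine median was 0.33, with 5 members above and 1 below 0. Its library medians did not overlap, at 0.05, 0.08 and 0.32 in KO_S404A and −0.31, 0.04 and −0.12 in KO_S47A. Without single libraries the median of these few genes ran from 0.02 to 0.50.

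Chaperone genes of the endoplasmic reticulum stood lower in KO_S404A than in KO_S47A as a list, and the libraries of each line were spread as widely as the lines. Their proteins fold and check secreted and membrane proteins, and many of the genes are induced in the unfolded protein response. Of 32 tested members 0 were called, all 32 had a log2 difference below 0, and the median was −0.48 where that of all genes tested was close to 0. An unadjusted p under 0.05 was reached by 8 members, all lower, where 2.47% of all genes were lower. The list median by library was 0.27, −0.36 and −0.67 in KO_S404A and 0.51, 0.56 and −0.32 in KO_S47A, relative to the mean of the 6 libraries. The ranges overlapped, because KO_S404A library 1 lay above KO_S47A library 3. Within same-numbered pairs the medians were −0.24, −0.89 and −0.28. Against KO the list median was 0.39 in KO_S404A and 0.86 in KO_S47A, and the fit without the block called 0 members in either line. The library numbers do not clearly pair either line with KO. With the library number as a block all the same, 31 of the 32 rose in KO_S47A minus KO, where 10.6% of all genes did. The block called 0 of the 32 in KO_S404A minus KO, where it called 14 of 14246 genes. In libraries 1 and 2 only, 10 of the 32 rose in KO_S404A minus KO, where 1.54% of all genes did, and 31 rose in KO_S47A minus KO, where 10.7% did. Chaperones were not alone in this: with the block, 38 of 43 ATF4 genes rose in KO_S47A minus KO. There 34 of 37 S phase and 33 of 36 mitosis genes fell, where 11.5% of all genes fell. In KO_S404A minus KO the block called 0 genes of these lists. The fit without the block called 0 genes of these lists against KO in either line. In libraries 1 and 2 only, 28 ATF4 genes rose in KO_S404A minus KO. With them 11 S phase and 13 mitosis genes fell, where 1.27% of all genes fell. The corresponding counts in KO_S47A minus KO were 42, 34 and 33, in the same directions, where 10.7% of all genes rose and 10.9% fell. The cause of the spread between libraries was not tested.

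DERL3, which helps move misfolded proteins out of this compartment, had 21.7, 11.4 and 10.5 CPM in KO_S404A and 32.8, 30.9 and 15.0 CPM in KO_S47A (−0.85, SE 0.31, interval −1.51 to −0.19, adjusted p = 0.679). HSPA5, the main chaperone of the compartment, had 5142, 2601 and 1877 CPM in KO_S404A and 6848, 7374 and 2375 CPM in KO_S47A (−0.79, interval −1.64 to 0.07). CRELD2 had 197, 102 and 91.9 CPM in KO_S404A and 269, 274 and 110.0 CPM in KO_S47A (−0.74, interval −1.43 to −0.05). In each, library 3 of KO_S47A lay far below its other libraries, library 1 of KO_S404A was the highest of its line, and the ranges overlapped. HSP90B1 followed the same order (−0.51), and these last 3 genes were chosen after their values were seen. The list median was −0.74 without KO_S47A library 3, −0.78 without KO_S404A library 1 and −0.31 without KO_S404A library 3, below 0 in each alternative.

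Genes of the ATF4 and amino acid response and of the cell cycle lay far apart between libraries of a line, and within same-numbered pairs each list kept 1 sign. Of 43 tested ATF4 genes 0 were called and 0 had an unadjusted p under 0.05, 41 were below 0 and the median was −0.28. By library the median was 0.49, 0.23 and −1.06 in KO_S404A and 0.63, 0.65 and −0.76 in KO_S47A, with library 3 the lowest in both. ASNS, asparagine synthetase, had 697, 532 and 96.8 CPM in KO_S404A and 758, 755 and 192 CPM in KO_S47A. ATF3, a stress-induced factor and the list's member with the smallest p, had 109.9, 53.3 and 19.8 CPM in KO_S404A and 146, 167 and 34.4 CPM in KO_S47A (−0.92, interval −2.31 to 0.47). Without KO_S404A library 3 the list median was 0.10, and without KO_S404A library 1 it was −0.68, against −0.33 with the library number as a block and −0.24 in libraries 1 and 2 only. The sign of the list median turned under 1 of the 12 alternatives. Within same-numbered pairs the ATF4 medians were −0.07, −0.46 and −0.42. Of 37 tested S phase genes and 36 mitosis genes 0 were called, 35 and 34 were above 0, and the medians were 0.25 and 0.33. For mitosis the library medians were −0.45, 0.09 and 0.90 in KO_S404A and −0.58, −0.56 and 0.64 in KO_S47A. Within same-numbered pairs the medians were 0.08, 0.56 and 0.24 for S phase and 0.11, 0.63 and 0.22 for mitosis. With the block they were 0.29 for S phase and 0.35 for mitosis. Without KO_S404A library 3 these list medians were −0.15 and −0.11, and without KO_S47A library 3 they were 0.72 and 0.82. FOXM1, a factor of mitotic transcription, had 129.5, 239.8 and 273 CPM in KO_S404A and 119.7, 128 and 208 CPM in KO_S47A (0.50, interval −0.13 to 1.13). POLD1, a subunit of DNA polymerase delta, had 45.6, 69.5 and 92.2 CPM in KO_S404A and 38.9, 44.4 and 68.7 CPM in KO_S47A (0.45, interval −0.16 to 1.05). MKI67, a marker of cycling cells chosen after its values were seen, had 96.7, 184 and 362 CPM in KO_S404A and 92.7, 94.0 and 216 CPM in KO_S47A. In bulk samples a larger share of cycling cells and more of these transcripts per cell cannot be told apart.

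**Figure D5:**
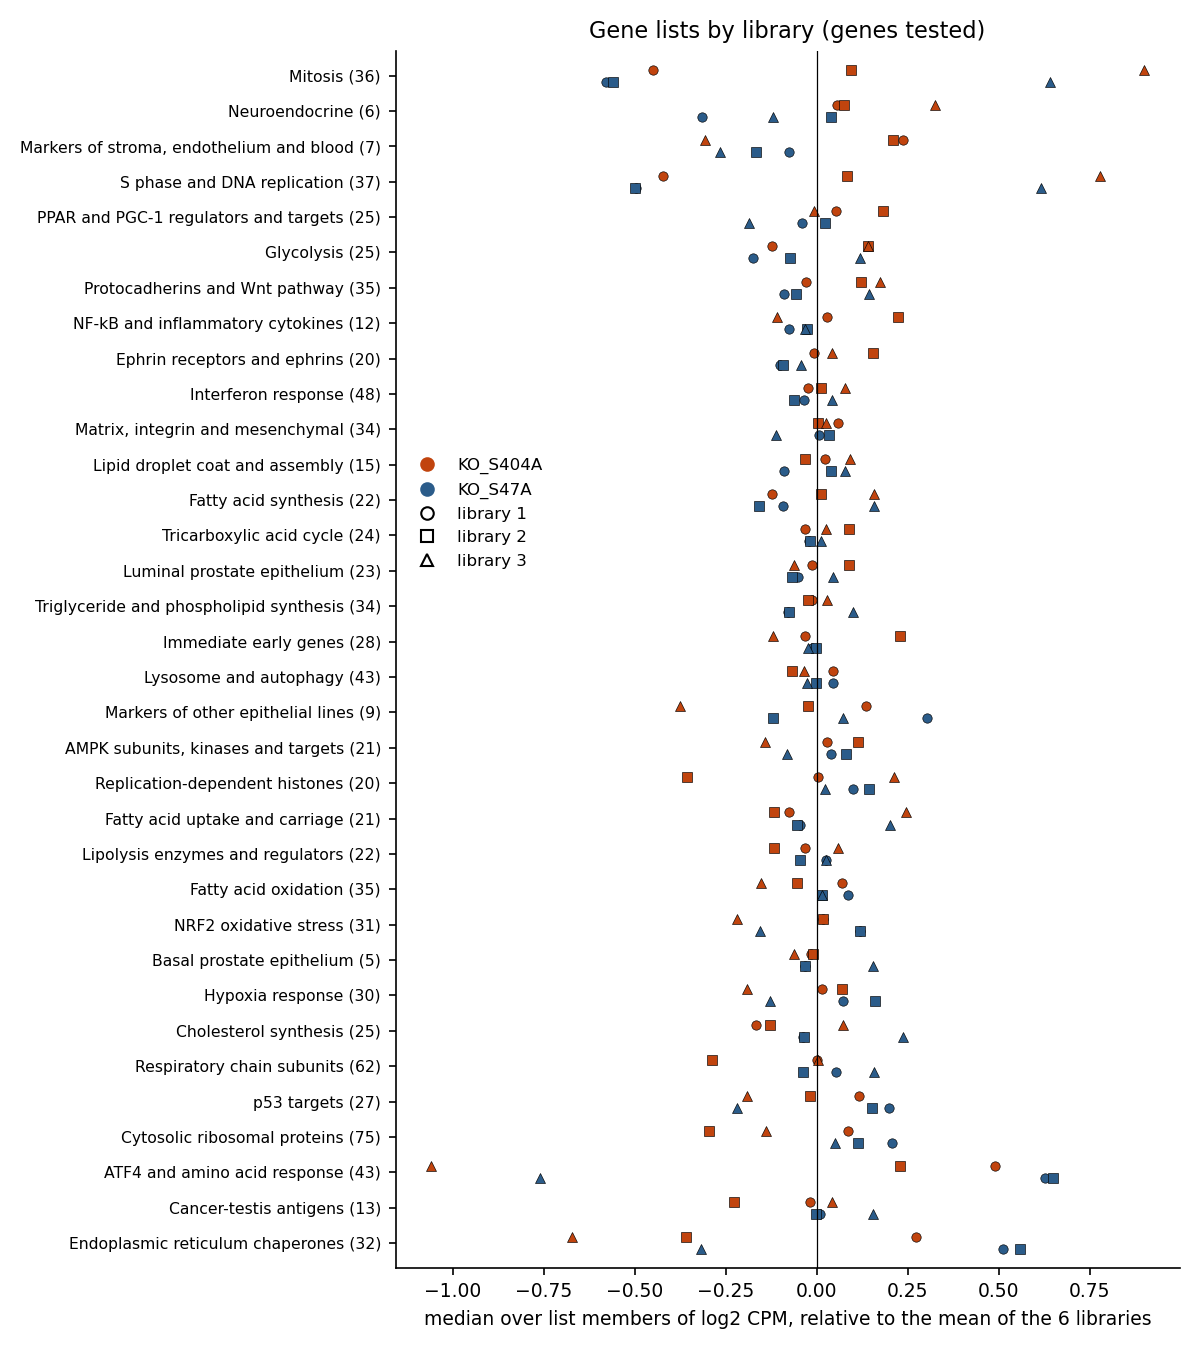
Median over the tested members of each list (number in brackets) of log2 CPM relative to the mean of the 6 libraries (horizontal axis), 1 point per library, KO_S404A in orange above KO_S47A in blue. For mitosis, S phase and ATF4 genes library 1 of KO_S404A lies near libraries 1 and 2 of KO_S47A, and the libraries numbered 3 lie together on the other side. In KO_S404A library 2 lies between libraries 1 and 3 for these lists and for the chaperones.

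Cytosolic ribosomal protein genes had mostly differences below 0, and none was called. Of 75 tested members 0 were called, 74 were below 0, and the median was −0.24. An unadjusted p under 0.05 was reached by 15 members, all lower, and the ranges did not overlap for 14, all lower. Of all genes tested 2.47% and 3.54% were lower in these ways. RPL32, the member with the smallest p, had 893, 730.4 and 769 CPM in KO_S404A and 1011, 964 and 889.8 CPM in KO_S47A (−0.26, SE 0.10, adjusted p = 0.679), overlapping at KO_S404A library 1. The library medians of the list were 0.09, −0.30 and −0.14 in KO_S404A and 0.21, 0.11 and 0.05 in KO_S47A, lowest in KO_S404A library 2, the library with the lowest share of unassigned reads. The part of that library's make-up in the result was not tested. The list median was −0.14 without KO_S404A library 2 and −0.35 without KO_S404A library 1. Many of these genes have near-identical pseudogenes, so their counts are uncertain where reads could be shared.

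No chromosome stood apart between the lines. The medians of log2 differences by chromosome lay between −0.06 (chromosome 13, 239 genes) and 0.05 (chromosome 16, 644 genes) over the 14168 tested genes with a known chromosome.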

How the data were processed

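Poly(A) RNA of C4-2 lines was column-purified and sequenced from directional libraries, per the labels' protocols. The authors deposited a table of whole-number read counts per gene for each of the 15 libraries. The submitters' processing notes name CASAVA and STAR. Their versions, the genome build, the annotation and the strand setting were not given in the sources used here. Overlapping and antisense genes and near-identical gene copies are therefore uncertain. There were 20806 gene entries, and 5 further entries of unassigned reads held 13.2% to 20.6% of each library and were dropped.

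The members and gene lists were chosen with earlier results of these data known. Counts were fitted in R 4.3.3 with edgeR 4.0.16 (filterByExpr, which kept 14246 genes, TMM scaling, quasi-likelihood test, 1 mean per group, all 15 libraries, 10 residual degrees of freedom). Genes were called at an adjusted p under 0.05 (Benjamini-Hochberg over all genes tested in a comparison). Adjusted p-values come from this test unless DESeq2 (version 1.42.0) is named. Differences are log2 fold changes, SE was taken as the size of the log2 fold change over the root of F, and intervals are 95% intervals built from it. Levels are CPM scaled by TMM, as mean ± SD where marked. The fit was tested on simulated counts. Lists are described by counts and medians, with no set test, and lists by library use log2 CPM with a prior count of 2.

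Library numbers come from the titles. The correlation of deviations from the group means was computed between same-numbered libraries. For KO_S404A and KO_S47A it was 0.499, 0.195 and 0.675. KO_S47A library 2 correlated better with KO_S404A library 1 (0.427), so the numbers do not clearly pair libraries 1 and 2 of these lines. Differences within same-numbered pairs and the fit with the block are given with this limit. For KO_S47A and KO it was 0.206, 0.15 and 0.429, and KO_S47A library 2 correlated better with KO library 1 (0.228). For KO_S404A and KO it was 0.168, 0.0197 and 0.51. The numbers were therefore not taken to pair either line with KO.

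Genes named are PNPLA2, up to 12 called genes a direction with the largest differences, at least 1 CPM and no overlap, filled up to 8 by smallest p, the member of each list with the smallest p, and 16 lipid genes fixed by name, of which 15 were tested. Results of some genes that this rule names are not reported here. Genes outside it are marked as chosen after their values were seen. Alternatives were DESeq2, RLE size factors, no filter, a fit of only the groups compared, the libraries numbered 1 and 2, the library number as a block, and leaving out each library.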

Additional observations from a re-analysis of the deposited data

How the results depend on the processing

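PNPLA2 kept its direction in KO_S404A minus KO_S47A under all 12 alternatives and fell short of the threshold in 5 of them: 1.67 with only the 2 groups fitted, and 1.62, 1.53, 1.57 and 1.55 without KO_S404A library 2, KO_S404A library 3, KO_S47A library 1 and KO_S47A library 2. Leaving out 1 library gave 1.53 to 1.87. The count of called genes in that comparison was 2 with the replicate block (which pairs the libraries by number), 2 by DESeq2 (WLS the other), 0 by edgeR with only the 2 groups fitted (238 at an unadjusted p under 0.05) and 0 to 1 without single libraries (221 to 678 at such a p where it was 0). In KO_S404A minus KO it was 3, against 14 with the replicate block (13 higher, 1 lower), 8 by DESeq2, 403 in libraries 1 and 2 only, 1 with only the 2 groups fitted and 1 to 4 without single libraries. In KO_S47A minus KO it was 1, against 3150 with the replicate block, 34 by DESeq2, 3098 in libraries 1 and 2 only and 1 to 15 without single libraries. Beyond EPHA6 the block changed no call of a named gene in KO_S404A minus KO_S47A. KO_S47A library 2 correlated better with KO_S404A library 1 (0.427) than with KO_S404A library 2 (0.195), so this pairing is uncertain. The KO_S404A and KO numbers are shared labels only: library 3 of KO_S404A correlated best with its own number, libraries 1 and 2 did not. Against KO, libraries 1 and 3 of KO_S47A correlated best with their own numbers and library 2 did not. Each line has 3 libraries, which limits the size of difference that can be called.

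Of 730 values of named genes under alternatives, 701 kept direction and call, 22 turned sign, 5 lost and 2 gained a call. The turned values are all of genes that were not called, and the cause was not tested. In libraries 1 and 2 only they were ACADL 0.15, C7orf68 −0.020, DGAT1 0.083, GATA3 0.016, LPL 0.59, PDK4 0.18 and PLIN2 0.88, and with the block ACADL 0.0047. The other 14 came from leaving out single libraries, over which ACADL ran from −0.10 to 0.15, C7orf68 from −0.33 to 0.35, DGAT1 from −0.092 to 0.036, GATA3 from −1.09 to 0.092, LPL from −0.76 to 1.01, PDK4 from −0.51 to 0.55 and PLIN2 from −0.61 to 0.88. Of 432 list medians, 398 moved by less than the spread between libraries. That spread was wide for some lists, 0.69 for mitosis and 0.82 for ATF4 genes. Medians whose sign turned, as in these lists without KO_S404A library 3, are therefore among the 398.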

Other observations

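Stress, matrix and signalling lists that bear on no comparison above held 0 called genes between KO_S404A and KO_S47A. Values in brackets after CPM are log2 differences between these lines. Of 48 tested interferon response genes 30 were above and 18 below 0, with a median of 0.04. OASL, an interferon-induced protein, had 0.274, 0.27 and 0.449 CPM in KO_S404A and 0.63, 0.6 and 1.05 CPM in KO_S47A, with no overlap (−1.20, SE 0.44, adjusted p = 0.679). Of 30 hypoxia response genes the median was −0.09. ERO1L, now named ERO1A, an oxidase that drives disulfide bonds in the endoplasmic reticulum, had 57.6, 49.4 and 51.8 CPM in KO_S404A and 64.0, 68.4 and 64.8 CPM in KO_S47A, with no overlap (−0.31, SE 0.09, adjusted p = 0.679). Of 27 tested p53 targets 22 were below 0 (median −0.14). CDKN1A, a cell cycle inhibitor, had 63.5, 46.1 and 36.7 CPM in KO_S404A and 79.7, 94.0 and 34.3 CPM in KO_S47A, with library 3 the lowest in both lines (−0.51, interval −1.12 to 0.11). The median of 31 NRF2 genes was −0.07, and IDH1, which makes NADPH, averaged 398 ± 132 CPM in KO_S404A and 583 ± 212 CPM in KO_S47A (−0.55, interval −1.17 to 0.07). Of 43 lysosome and autophagy genes the median was −0.02, with HEXA, a lysosomal hexosaminidase, at 41.7 ± 6.31 CPM in KO_S404A and 49.7 ± 2.93 CPM in KO_S47A (−0.25, SE 0.12).

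Among 34 tested matrix, integrin and mesenchymal genes the median was 0.04. VIM, a mesenchymal intermediate filament, had 12.3, 14.3 and 12.2 CPM in KO_S404A and 10.4, 11.4 and 9.12 CPM in KO_S47A, with no overlap (0.33, SE 0.13, adjusted p = 0.679). The 35 tested protocadherin and Wnt genes had a median of 0.12. Beside WLS and PCDH7 the Wnt receptor FZD8 had an unadjusted p under 0.05 (0.55, chosen after its values were seen), where 6.59% of all genes did. Of 28 immediate early genes the median was −0.0039. FOSL2, a subunit of AP-1, had 13.59, 18.2 and 17.3 CPM in KO_S404A and 12.2, 13.56 and 12.5 CPM in KO_S47A, with no overlap (0.36, SE 0.13). TNFAIP3, a brake on NF-kB signalling, averaged 0.984 ± 0.201 CPM in KO_S404A and 0.525 ± 0.296 CPM in KO_S47A (0.91, interval 0.12 to 1.69), and the median of the 12 tested NF-kB and cytokine genes was 0.11. The median of 20 replication-dependent histone genes was −0.05, with HIST1H2BC at 8.53 ± 1.95 CPM in KO_S404A and 11.9 ± 2.03 CPM in KO_S47A (−0.48, interval −0.91 to −0.05). Of 13 tested cancer-testis antigens the median was −0.28. MAGEA11, whose family has near-identical members, had 0.0805, 0 and 0.039 CPM in KO_S404A and 0.241, 0.394 and 0.0202 CPM in KO_S47A, with overlap. PDGFRB, a receptor of stromal cells, had 4.82, 5.13 and 4.37 CPM in KO_S404A and 3.80, 2.85 and 3.55 CPM in KO_S47A, with no overlap (0.49, SE 0.16, adjusted p = 0.679). GATA3, from the markers of other epithelial lines, averaged 0.509 ± 0.412 CPM in KO_S404A and 0.68 ± 0.133 CPM in KO_S47A (−0.40, interval −1.97 to 1.17).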
